A study of Mus musculus with 15 samples.

Results

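Phosphorylated-S6 ribosome profiling of the mouse olfactory epithelium was compared between mice that smelled acetophenone and decanal from separate filter papers, called A&D, and mice that were given papers without odorant, called Control. The comparison covers 6 of the 15 libraries of the study, 3 mice in each group, and all 19229 genes whose counts passed the filter. All animals were wild-type C57BL/6J males 8 weeks of age, kept alone in an odour-free chamber for 4 hours and then exposed for 90 minutes. The A&D mice received 10 µL of each odorant, each on a paper of its own, with the 2 papers 1 mm apart, so that the vapours met in the air. Acetophenone is an aromatic ketone and decanal a straight-chain aldehyde. Beside these groups stand the A+D mice, which received the same amounts of the same odorants on 1 paper, and the O&C mice, which received octanal and cis-3-hexenol on separate papers. Since acetophenone and decanal were never given alone, their contributions cannot be told apart. The labels call the 3 libraries of a group biological replicates, and each is taken as 1 mouse. P-values of the fit rest on the spread between mice within groups, estimated over all 5 groups of the study together.

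Ribosomal protein S6 is phosphorylated in neurons that have recently been active, and an antibody to phosphorylated S6 pulls down ribosomes of such cells together with the messenger RNA they carry. Each mature olfactory sensory neuron expresses 1 odorant receptor gene out of a very large family. A rise of a receptor transcript in the precipitate is therefore used to name neurons that an odour activated. Receptor transcripts were also present in Control, so a level alone does not name an active neuron. Binding of an odorant to its receptor acts through an olfactory G protein, adenylyl cyclase 3 and a cyclic-nucleotide-gated channel, and activity of the neuron also sets the level of adhesion molecules that sort its axon in the olfactory bulb. Class I receptors resemble those of fish and class II receptors make up most of the mammalian family.

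The 15 libraries held between 22704193 and 25287077 counts, and the mean correlation of a library with the others lay between 0.958 and 0.978. The defining markers of mature olfactory sensory neurons were abundant in all 6 libraries, with Omp, the olfactory marker protein, between 4205 and 8388 CPM (counts on a common library size, after TMM scaling). Control 1 and A&D 1 stood apart from the other 4 libraries in 5 secreted carrier proteins of the nasal glands, Obp1a, Obp1b, Obp2a, Obp2b and Lcn11, which reached at most 1.58 CPM in those 2 libraries and lay between 11.8 and 525 CPM in the other 4. Nasal gland products as a whole were not low there. The summed share of 18 such genes, these 5 included, was 1.54% in Control 1 and 1.20% in A&D 1. In the other 4 libraries it lay between 0.980% and 1.40%. In such precipitates, fewer cells of a type, less RNA per cell and a smaller part of it pulled down cannot be told apart.

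In A&D, 193 genes were higher than in Control and 4 were lower, at an adjusted p under 0.05 over all genes. Called higher genes made up 1.00% of all genes tested and called lower genes 0.0208%. Of the 867 odorant receptor genes tested, 89 were higher and none was lower. At an unadjusted p under 0.05, 35 receptors were lower, and DESeq2 called 94 higher and 1 lower. All 89 higher receptors had every A&D library above every Control library, a separation that 11.6% of all genes showed in that direction and 8.87% in the other. Without Control 1 and A&D 1, which leaves 2 mice a group, 79 genes were called higher and 0 lower, and 65 of the 89 receptors remained called. The calls on 68 of the 89 receptors held whichever of the 6 libraries was left out. The count of higher genes fell to 111 when Control 1 was left out, to 126 on removal of Control 3, to 122 in the absence of A&D 1 and to 126 in that of A&D 2. Lower genes numbered 26 when A&D 3 was left out and 12 on removal of Control 3, and between 0 and 2 when the dropped library was Control 1, Control 2, A&D 1 or A&D 2. Between 71 and 82 receptors were called higher in these 6 fits.

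The higher receptors changed by large factors. Their median log2 fold change was 2.88, with a range from 0.81 to 6.02, whereas the median over the 778 receptors that were not called was -0.09 and over all genes -0.002. Of the 89, 87 rose more than 2-fold and 41 more than 8-fold. Their mean level in Control ran from 0.0138 to 34.2 CPM with a median of 1.57, and 32 of them lay below 1 CPM there. In A&D the same genes had mean levels from 0.850 to 105 CPM, with a median of 11.3. Among the A&D mice, mouse 1 had the highest level for 49 of the 89 receptors and mouse 3 the lowest for 53. For 20 of the 89, as for 155 of all 867 receptors tested, counts were fractional in most libraries, and their values are less certain. Genes with such counts are described here as having reads divided with another gene. This was inferred from the fractions alone, and the other gene was not looked for.

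**Figure D1:**
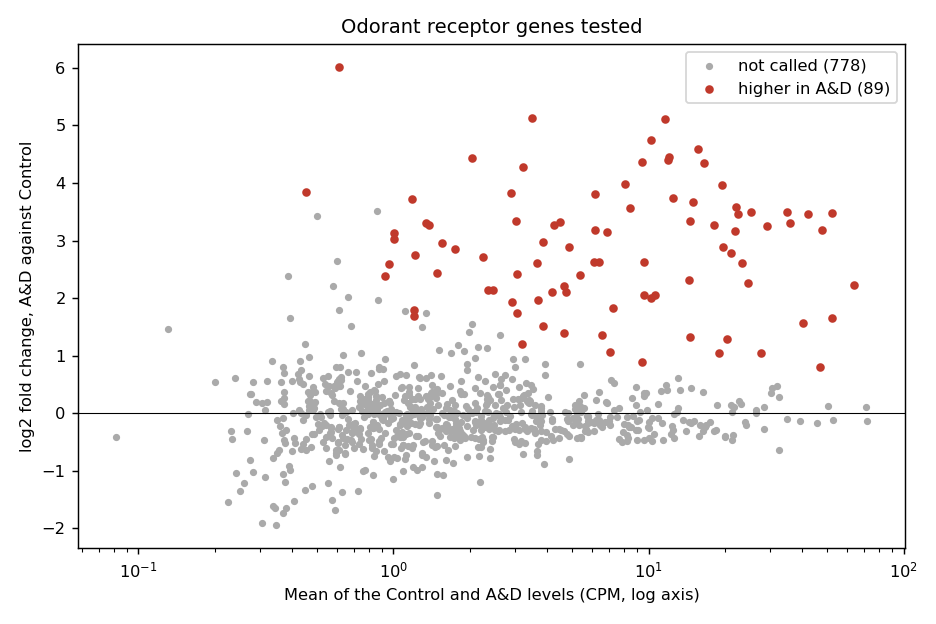
Each point is 1 of the 867 odorant receptor genes tested. The horizontal axis is the mean of its Control and A&D levels (CPM, log axis) and the vertical axis its log2 fold change, with the 89 genes higher in A&D in red. Red points lie between 0.81 and 6.02, at low and at high levels, and most grey points lie near 0.

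The largest fitted change belonged to Olfr51. It was at 0, 0 and 0.0413 CPM in the Control mice and at 1.75, 1.03 and 0.837 CPM in the A&D mice. The groups did not overlap, but the Control mice held only 1 read of it in all against 86 in A&D, a ratio of 88.8 with a 95% counting interval from 15.5 to 3548, which covers counting error only. Its log2 fold change of 6.02 ± 0.88 (SE, n = 3 per group, adjusted p = 0.00064) depends on how a near-zero level is treated and is not a bound.

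Olfr1047 was next, with 0.0808, 0.199 and 0.289 CPM in Control and 8.51, 7.02 and 4.94 CPM in A&D (log2 fold change 5.13 ± 0.50, adjusted p = 4.44e-06). Each A&D mouse stood far above each Control mouse. Olfr1026 was at 0.687, 1.71 and 1.32 CPM in Control and at 41.1, 31.4 and 17.4 CPM in A&D, a change of 4.59 ± 0.40 (adjusted p = 3.71e-06). The A&D mice differed among themselves here by more than 2-fold, still well clear of Control.

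Olfr218 rose from 0.525, 0.798 and 1.9 CPM to 26.9, 27.1 and 14.4 CPM (4.41 ± 0.48, adjusted p = 0.000103). Olfr117 rose from 1.78, 1.24 and 1.65 CPM to 36.9, 32.3 and 25.5 CPM (4.34 ± 0.36, adjusted p = 2.28e-06). Neither gene overlapped between the groups. Olfr904 had 0.242, 0.518 and 0.165 CPM in Control against 6.67, 6.37 and 5.34 CPM in A&D (4.28 ± 0.43, adjusted p = 6.15e-06), with little spread among the A&D mice.

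Lower in level were Olfr922 and Olfr1474. Olfr922 moved from 0.121, 0.199 and 0.207 CPM to 4.66, 2.93 and 4.11 CPM, a log2 change of 4.43 ± 0.42. Olfr1474 moved from 0.0808, 0 and 0.0826 CPM to 1.03, 0.646 and 0.877 CPM, a log2 change of 3.85 ± 0.63 (adjusted p = 0.00195). Olfr744, at 0.242, 1.6 and 1.03 CPM in Control, reached 17.1, 17.4 and 11 CPM in A&D (3.98 ± 0.48). The calls on these and on the other receptors named so far held whichever single library was left out, while those on Olfr51 and Olfr1474 were lost without both Control 1 and A&D 1 (adjusted p = 0.0514 and 0.059).

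Olfr881 was the exception among the receptors of largest change. Its A&D levels of 10.6, 2.93 and 2.63 CPM were spread widely around mouse 1, against 0.323, 0.518 and 0.289 CPM in Control. The log2 fold change was 3.82 ± 0.77 with an adjusted p of 0.0236. Without A&D 1 it was 2.86, and the call was lost when A&D 1 or any single Control library was left out, with an adjusted p of up to 0.161.

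The highest levels in A&D were reached by Olfr1349, Olfr1368 and Olfr287. Olfr1368 was at 8.32, 8.54 and 8.96 CPM in Control and at 103, 94.1 and 91.1 CPM in A&D, with little spread in either group (3.48 ± 0.17, adjusted p = 6.53e-10). Olfr1349, which already had 23.2, 26 and 17.9 CPM in Control, reached 90.3, 110 and 115 CPM (2.23 ± 0.21, adjusted p = 5.44e-06). Olfr287, whose reads were divided with another gene, moved from 11.1, 10.2 and 7.27 CPM to 92.6, 76.8 and 90.3 CPM (3.18 ± 0.18, adjusted p = 4.11e-09). The weakest of the 89 calls by size was Olfr370, at 33.9, 29.3 and 39.6 CPM in Control and 57, 63.7 and 59 CPM in A&D, a change of 0.81 ± 0.17 (adjusted p = 0.0189) that was lost when any of 5 libraries was left out.

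**Figure D2:**
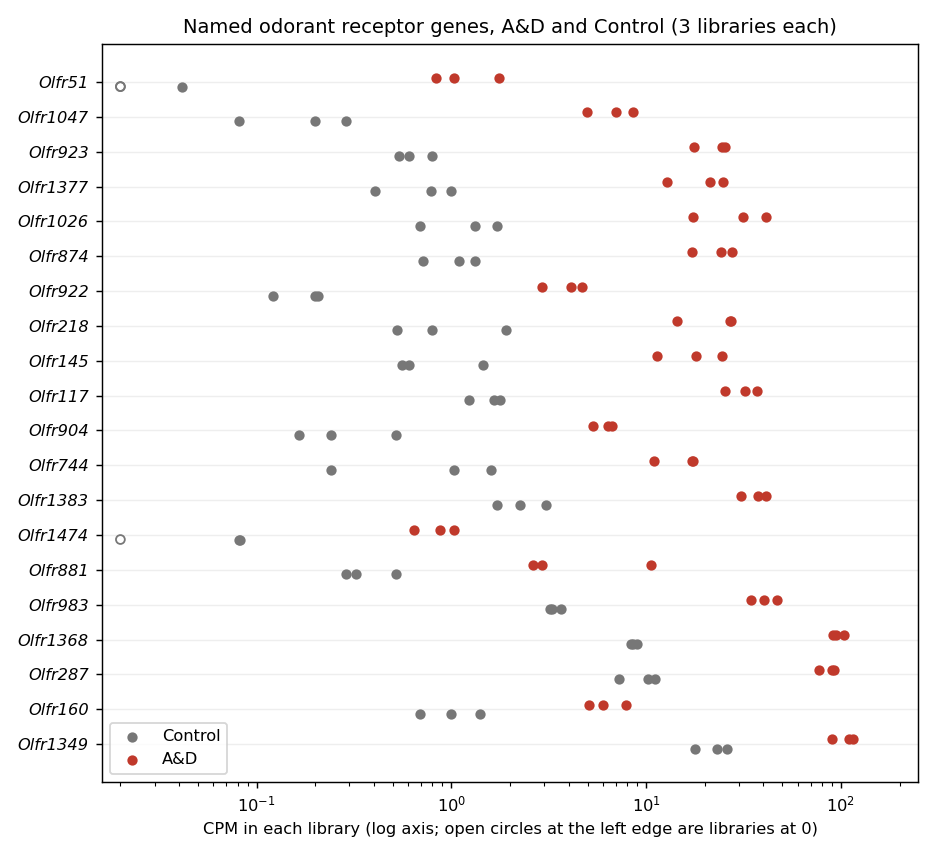
Levels of the receptor genes named for their fold change, their level or earlier reports on acetophenone, 1 point per library (CPM, log axis), Control in grey and A&D in red; open circles at the left edge are libraries at 0. In every row the 3 red points lie to the right of the 3 grey points, and Olfr881 shows a single A&D library apart from the other 2.

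A short list of receptors that earlier work has reported to respond to acetophenone was also examined. It was chosen with earlier results of these data known and does not cover every such report, so it is a description. Of its 6 receptors 5 were tested, all 5 were called higher, and Olfr151 did not pass the count filter. Olfr923 moved from 0.606, 0.798 and 0.537 CPM to 25.4, 24.5 and 17.6 CPM (5.11 ± 0.41, adjusted p = 1.17e-06). Olfr1377 moved from 0.404, 0.997 and 0.785 CPM to 21.3, 24.9 and 12.8 CPM (4.74 ± 0.39, adjusted p = 1.1e-06). Both lay more than 10 times above their highest Control library in every A&D mouse.

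Olfr145 had 0.606, 0.558 and 1.45 CPM in Control and 24.5, 18.1 and 11.3 CPM in A&D (4.37 ± 0.48, adjusted p = 6.62e-05). Olfr983, the most abundant of the 5, moved from 3.64, 3.19 and 3.31 CPM to 47.2, 34.4 and 40.4 CPM (3.59 ± 0.21, adjusted p = 9.91e-09). Olfr160, also known as M72, showed the smallest change of the 5, from 0.687, 0.997 and 1.4 CPM to 7.87, 5.98 and 5.06 CPM (2.61 ± 0.39, adjusted p = 0.000732). The 5 genes kept their calls whichever library was left out, and without both Control 1 and A&D 1 only the call on Olfr160 was lost (adjusted p = 0.0659).

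By class, 85 of the 747 class II receptors tested were higher, 2 of the 86 class I receptors, and 2 of the 34 receptors without a class. The class I genes were Olfr569 and Olfr556. Olfr569 rose from 0.162, 0.319 and 0.289 CPM to 2.91, 2.5 and 2.11 CPM (3.26 ± 0.60, adjusted p = 0.00658), a call lost without Control 1. Olfr556 rose from 1.78, 2.51 and 1.69 CPM to 5.99, 5.25 and 5.9 CPM (1.52 ± 0.26, adjusted p = 0.0035). Olfr455, which carries a subfamily number outside both classes, rose from 23.1, 25.5 and 27.3 CPM to 78.7, 83.9 and 76.2 CPM (1.65 ± 0.15, adjusted p = 2.81e-06).

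Subfamilies, read from the MOR names that group mouse receptors by sequence, were known for 834 of the receptors tested and for 88 of the 89 higher ones. Of 206 subfamilies 39 had a higher member, and 34 subfamilies with 5 or more tested members had none. Among subfamilies with 4 or more tested members, the highest shares of higher members were in MOR188 (3 of 4), MOR162 (5 of 7), MOR161 (4 of 6) and MOR111 (6 of 9). Both members of MOR129 were higher, as were 2 of 3 in MOR286. MOR267 contributed 7 of 14 and MOR256 7 of 43, while MOR171, which holds Olfr160, had 1 of 26 and a median log2 fold change over its members of -0.16.

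**Figure D3:**
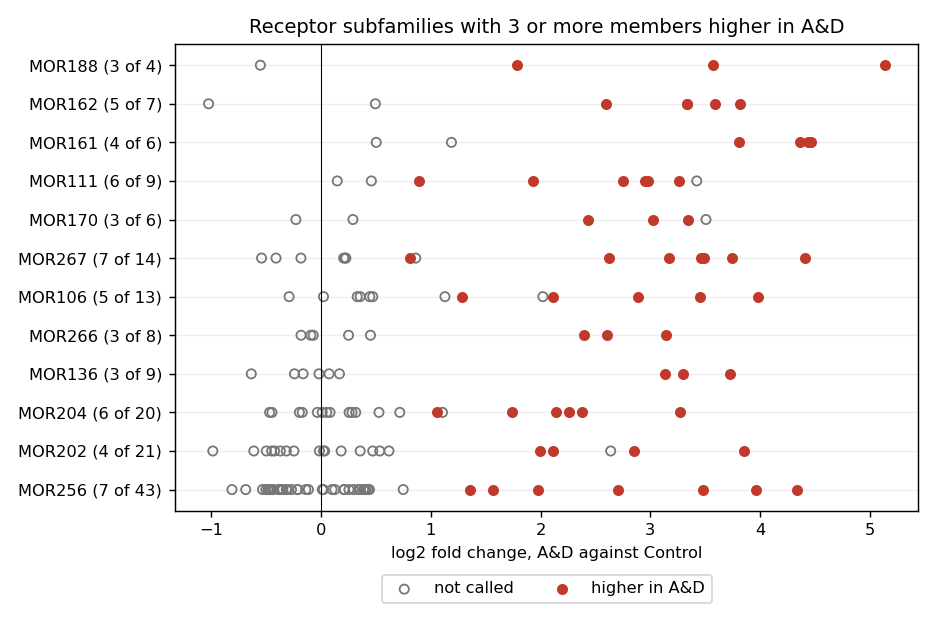
Log2 fold change, A&D against Control, of every tested member of the receptor subfamilies with 3 or more higher members, 1 point per gene, red where called. In MOR161, MOR162 and MOR188 most members lie above 1.5, and in MOR256 the 7 higher members stand apart from a large group around 0.

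In MOR161, Olfr874 moved from 1.09, 0.718 and 1.32 CPM to 27.7, 24.3 and 17.1 CPM (4.46 ± 0.29, adjusted p = 3.55e-08) and Olfr876 from 0.0404, 1.44 and 0.992 CPM to 10.6, 15.1 and 8.97 CPM (3.80 ± 0.52, adjusted p = 0.00064). The other called members were Olfr922 and Olfr145, described above. Olfr875 had 1.17, 1.16 and 0.95 CPM in Control and 3.46, 2.28 and 1.75 CPM in A&D, a difference of 1.19 ± 0.36 that did not pass (adjusted p = 0.155). Olfr877 was not called either, at 0.445 ± 0.0327 CPM in Control and 0.636 ± 0.459 CPM in A&D (SD, n = 3; difference 0.50 ± 0.61). Counts of all 6 genes were whole in most libraries.

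The sequences of MOR161 are given because they show how alike members that passed the test and members that did not can be. Over the whole coding sequence, identity between pairs of members ran from 65.9% to 95.6%. Positions opposite a gap count as differences. This lowers the values of Olfr145, whose reading frame of 1044 bases is the longest of the 6, including the lowest value, with Olfr922. The highest value belonged to Olfr874 and Olfr875, the former called and the latter not, and Olfr874 was 88.9% identical to Olfr876 and 71.2% to Olfr922, both of them called. The stretch of 90 bases with the most variable positions is given for the 6 genes, 5′ to 3′, from the GENCODE M21 transcripts (GRCm38), with capitals at the 60 positions where the 6 differ among themselves, the called genes first. It begins at base 408 of the reading frame in Olfr874, Olfr876 and Olfr875, at base 411 in Olfr922 and Olfr877 and at base 519 in Olfr145, whose longest reading frame begins further upstream.
Olfr874: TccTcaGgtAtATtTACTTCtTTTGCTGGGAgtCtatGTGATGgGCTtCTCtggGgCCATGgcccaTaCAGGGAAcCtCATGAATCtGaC
Olfr922: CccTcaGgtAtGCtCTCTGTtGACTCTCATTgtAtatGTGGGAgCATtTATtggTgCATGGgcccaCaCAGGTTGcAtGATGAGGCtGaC
Olfr145: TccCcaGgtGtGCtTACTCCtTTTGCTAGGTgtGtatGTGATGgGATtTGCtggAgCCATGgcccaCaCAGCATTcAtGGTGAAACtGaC
Olfr876: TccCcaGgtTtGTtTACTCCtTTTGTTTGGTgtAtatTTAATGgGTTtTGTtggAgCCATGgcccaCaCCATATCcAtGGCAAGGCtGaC
Olfr875: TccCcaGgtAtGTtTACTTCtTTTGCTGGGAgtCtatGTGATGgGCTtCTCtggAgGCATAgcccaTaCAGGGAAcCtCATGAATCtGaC
Olfr877: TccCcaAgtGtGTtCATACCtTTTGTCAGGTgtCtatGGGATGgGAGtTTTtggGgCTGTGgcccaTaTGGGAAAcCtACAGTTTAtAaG
Olfr875 missed the threshold with every A&D mouse above every Control mouse, so the missed call does not show that it did not change. Within this stretch Olfr875 differed from Olfr874 at 5 positions, Olfr145 at 21, Olfr876 at 29, Olfr877 at 30 and Olfr922 at 36. The order of these distances from Olfr874 did not follow the calls, since the nearest sequence was that of a gene that was not called.

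In MOR162, whose members Olfr983 and Olfr881 were described above, Olfr901 rose from 1.7, 3.31 and 2.81 CPM to 33.8, 26.4 and 18.9 CPM (3.34 ± 0.27) and Olfr889 from 0.647, 1.2 and 0.578 CPM to 7.23, 9.13 and 8.17 CPM (3.33 ± 0.33). Olfr890 rose by 2.59 ± 0.58, with the call lost when any of 5 libraries was left out. Olfr884 and Olfr887 of the same subfamily were not called.

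In MOR111, Olfr776 moved from 3.27, 3.11 and 3.84 CPM to 33.1, 37 and 28.2 CPM (3.26 ± 0.17, adjusted p = 1.9e-09), and Olfr789 from 5.82, 6.7 and 7.31 CPM to 11.4, 13.9 and 11.5 CPM (0.89 ± 0.19, adjusted p = 0.0246). Between them lay Olfr775, Olfr803, Olfr785 and Olfr787, with log2 fold changes from 1.93 to 2.98. Olfr774, at 0.0823 ± 0.109 CPM in Control and 0.924 ± 0.460 CPM in A&D, had a difference of 3.42 ± 0.97 that did not pass (adjusted p = 0.123). Olfr786 and Olfr788 were not called, with differences of 0.15 and 0.46.

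In MOR267, the called members besides Olfr218 and Olfr370 were Olfr1408, Olfr55, Olfr479, Olfr509 and Olfr1404. Olfr1408 moved from 1.17, 1.95 and 2.07 CPM to 33.3, 20.6 and 15.7 CPM (3.74 ± 0.31). Olfr479 moved from 6.3, 7.46 and 7.23 CPM to 84, 81.4 and 65.8 CPM (3.46 ± 0.25), with its reads divided with another gene, as were those of Olfr55 and Olfr509. The other 2 rose by 2.62 ± 0.23 for Olfr1404 and by 3.17 ± 0.31 for Olfr509.

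Each receptor was also paired with its best match in coding sequence, the gene with the highest blastn score, which is not always the one of highest identity over the whole length. For 39 of the 89 higher receptors the best match was also higher, or 43.8%, against 55 of 776 receptors that were not called, or 7.09%. In 29 of these 39 both genes had whole counts in most libraries. Higher receptors were 84.0% identical to their best match in the median. Gene order on the chromosome was taken from the RefSeq annotation of GRCm38.p6. Neighbours here are consecutive tested receptors on a chromosome, at any distance, with untested receptors and other genes between them skipped. By this count 37 of the 89 (41.6%) had a higher receptor as an immediate neighbour, against 119 of the 778 not called (15.3%). Relatives lie side by side in receptor clusters, so both measures share genes, and they are given as descriptions. The higher receptors formed 18 runs of neighbours, the longest of 3 genes, Olfr1418, Olfr1419 and Olfr1420, which rose by 2.39, 3.14 and 2.60. The 2 members of MOR129, Olfr51 and Olfr1377, were neighbours. Neighbours from different subfamilies included Olfr922 with Olfr923 and Olfr160 with Olfr874.

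Among receptor pseudogenes, as among intact receptors, some were higher and most were not called. Of 299 listed 48 were tested, and 5 were higher and none lower. Beside these stand 89 higher of 867 intact receptors and 193 higher of all 19229 genes tested. The summed share of the 299 was 0.0113% ± 0.000866 in Control and 0.0282% ± 0.00317 in A&D (SD, n = 3), with no overlap (exact permutation p = 0.1, adjusted 0.35). Over the 48, 18 lay above zero and 30 below, while 3 were lower and 6 higher at an unadjusted p under 0.05 and the median over the 48 was -0.19. Olfr718-ps1 moved from 4.12, 3.35 and 4.09 CPM to 84.5, 77.6 and 54.1 CPM (4.22 ± 0.38, adjusted p = 1.49e-05). Olfr766-ps1 rose by 4.35 ± 0.53, Olfr1025-ps1 by 4.17 ± 0.34, Olfr764-ps1 by 4.10 ± 0.49 and Olfr1326-ps1 by 2.54 ± 0.22. Reads of Olfr718-ps1, Olfr766-ps1 and Olfr764-ps1 were divided with another gene. Olfr1025-ps1, with whole counts, belongs to MOR196 like Olfr1026.

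The summed level of receptors followed the single genes. Intact receptors held 0.309%, 0.365% and 0.350% of all counts in the Control mice and 0.467%, 0.486% and 0.455% in the A&D mice, groups that did not overlap (0.341% ± 0.0293 against 0.469% ± 0.0155, SD, n = 3; exact two-sided permutation p = 0.1, the smallest that 3 against 3 can give, and 0.35 after adjustment over 21 lists). Class II receptors held 0.319% ± 0.0248 in Control and 0.441% ± 0.0138 in A&D, and class I receptors 0.0140% ± 0.00412 and 0.0135% ± 0.00252.

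Apart from receptors and their pseudogenes, 103 of 18314 genes were called, 99 higher and 4 lower, none with overlap between the groups. The 99 higher genes had a median change of 0.75 (log2), and 27 rose more than 2-fold. Calls on 28 of the 99 held whichever library was left out, and 9 of the 99 remained called without both Control 1 and A&D 1. Levels of mature neuron markers moved in the same direction, as described further on, and with libraries scaled on 21 such markers 35 of the 99 stayed called, as did 87 of the 89 receptors. That scaling moved the median of all genes by -0.46. On it the split of calls over all genes was 137 higher and 6432 lower, and 134 receptors were called lower.

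Genes linked by earlier work to the activity of sensory neurons formed the clearest group. Of 10 tested, 7 were higher and none lower, and their median log2 fold change of 1.25 stood beside -0.002 for all genes. Several of them were chosen because earlier odour experiments pointed to them, so the group is a description. Pcdh10, an adhesion molecule of the protocadherin family, moved from 7.6, 10.1 and 4.26 CPM to 47.4, 40 and 25 CPM (2.35 ± 0.37, adjusted p = 0.00431). Kcng1, a silent subunit of voltage-gated potassium channels, moved from 11.6, 12 and 6.73 CPM to 35.4, 43 and 32.8 CPM (1.87 ± 0.23, adjusted p = 0.000129). Both were more than 2-fold above the highest Control library in each A&D mouse.

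Lrrc3b, a membrane protein with leucine-rich repeats, was at 124, 147 and 98.7 CPM in Control and 397, 473 and 327 CPM in A&D (1.70 ± 0.23, adjusted p = 0.000475). Heg1, a membrane protein of cell junctions, had 20.8, 21.1 and 17.6 CPM in Control against 59.2, 51.8 and 44.9 CPM (1.39 ± 0.14, adjusted p = 8.25e-06). Reads of Pcdh10, Lrrc3b and Heg1 were divided with another gene. The call on Pcdh10 was lost without both Control 1 and A&D 1 (adjusted p = 0.122). Scgn, the calcium sensor secretagogin, rose by 1.03 ± 0.15 from 19.5 ± 0.701 CPM to 39.7 ± 9.05 CPM (SD, n = 3).

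S100a5, a calcium-binding protein known to follow odour input, had 1527 ± 344 CPM in Control and 2882 ± 765 CPM in A&D (SD, n = 3), a difference of 0.92 ± 0.26 that did not pass (adjusted p = 0.144). Doc2g and Nrn1 did not pass either, with differences of 2.90 ± 2.15 and 0.01 ± 0.31.

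Among molecules that sort sensory axons by activity, 3 of 16 were higher and none lower, with a median of 0.30. Besides Pcdh10 these were Kirrel2 and Sema7a. All 3 also belong to the activity-linked genes above, so both groups share these calls. Kirrel2, an adhesion molecule whose level tracks neuronal activity, had 177, 223 and 195 CPM in Control and 400, 481 and 411 CPM in A&D (1.12 ± 0.19, adjusted p = 0.00424). Sema7a, a membrane-bound semaphorin, had 9.09, 8.57 and 6.16 CPM against 12.3, 17.4 and 15.8 CPM (0.93 ± 0.21, adjusted p = 0.0323), and its call was lost when any of 5 libraries was left out. Kirrel3, which is found on axons with low Kirrel2, was at 16.5 ± 2.06 CPM and 23.0 ± 1.34 CPM (difference 0.47 ± 0.12, adjusted p = 0.0714), and Epha5 at 31.6 ± 2.70 CPM and 38.8 ± 7.26 CPM (0.29 ± 0.17, adjusted p = 0.548).

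Immediate early genes, transcription factors and regulators induced within minutes of activity, were mostly not called. Of 27 tested 1 was higher, 14 lay above zero and 13 below, and the median was 0.07. At an unadjusted p under 0.05, 6 of them were higher and 1 lower, beside 1320 and 966 of all 19229 genes tested. The called gene was Nr4a1, an orphan nuclear receptor, at 43.6, 37.9 and 31.1 CPM in Control and 78.8, 90.1 and 72.3 CPM in A&D (1.10 ± 0.15, adjusted p = 0.000283), a call that held whichever library was left out, and without both Control 1 and A&D 1 (adjusted p = 0.00198). Fosb was at 2.16 ± 0.627 CPM in Control and 6.21 ± 1.17 CPM in A&D (1.52 ± 0.55, adjusted p = 0.271). Fos was at 39.7 ± 13.2 CPM and 45.4 ± 5.88 CPM (0.19 ± 0.44, adjusted p = 0.921), and Egr1 at 59.0 ± 16.5 CPM and 63.1 ± 22.3 CPM (0.10 ± 0.37, adjusted p = 0.956).

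Feedback regulators of MAP kinase and CREB signalling gave 1 higher and 1 lower gene among 21, with a median of -0.02. Dusp14, a dual-specificity phosphatase, rose from 223, 234 and 210 CPM to 449, 450 and 383 CPM (0.94 ± 0.14, adjusted p = 0.000888). Pde4b, which breaks down cyclic AMP, fell from 14.7, 13.8 and 12.4 CPM to 8.64, 7.92 and 8.05 CPM (-0.73 ± 0.16, adjusted p = 0.0369), but the call was lost whichever of the 6 libraries was left out.

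Outside these lists, Cartpt, the precursor of a neuropeptide, rose from 31.1, 39 and 42.6 CPM to 147, 96.6 and 77.4 CPM (1.51 ± 0.23, adjusted p = 0.00151). Dlg2, a scaffold protein of membrane channels, rose from 74.6, 110 and 107 CPM to 247, 277 and 195 CPM (1.30 ± 0.21, adjusted p = 0.00225). Neither overlapped between groups, and both calls held whichever library was left out, though reads of Dlg2 were divided with another gene. Nqo1, a quinone reductase, rose from 124, 184 and 124 CPM to 393, 350 and 252 CPM (1.20 ± 0.23, adjusted p = 0.0126). This call was lost in 4 of the 6 fits with a library left out. Nqo1 was the only called gene among 34 of xenobiotic metabolism, and most of that list went the other way. Of the 34, 29 lay below zero and 5 above, with a median of -0.29. At an unadjusted p under 0.05, 10 were lower and 2 higher, beside 966 and 1320 of all 19229 genes tested.

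Ildr2 rose by 1.61 ± 0.32, Nrn1l, a relative of neuritin, by 1.22 ± 0.22, S100a3 by 1.21 ± 0.24 and Ptchd1 by 1.14 ± 0.24. The non-coding or uncharacterised genes Gm35167, 4930511M06Rik, Gm46123 and 9530034E10Rik rose by 1.58, 1.39, 1.18 and 1.14. Of these 8, only Gm35167 kept its call without each of the 6 libraries in turn, and 4930511M06Rik lost it in all 6 cases. Reads of Nrn1l and S100a3 were divided with another gene.

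Besides Pde4b, the lower genes were Tbx3, Adam17 and Litaf. Tbx3, a T-box transcription factor, had 5.05, 6.62 and 6.16 CPM in Control and 2.44, 2.24 and 2.83 CPM in A&D (-1.24 ± 0.25, adjusted p = 0.0149). Adam17, a membrane protease that sheds surface proteins, had 14.9, 13.8 and 13.4 CPM and 9.2, 8.09 and 9.53 CPM (-0.65 ± 0.14, adjusted p = 0.0298), and Litaf, a protein of late endosomes, 144, 133 and 115 CPM and 90.9, 92 and 98.6 CPM (-0.48 ± 0.10, adjusted p = 0.0287). Reads of Adam17 were divided with another gene. Each of the 4 lower calls was lost in 4 or more of the 6 fits with a library left out, and none of the 4 was called without both Control 1 and A&D 1.

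**Figure D4:**
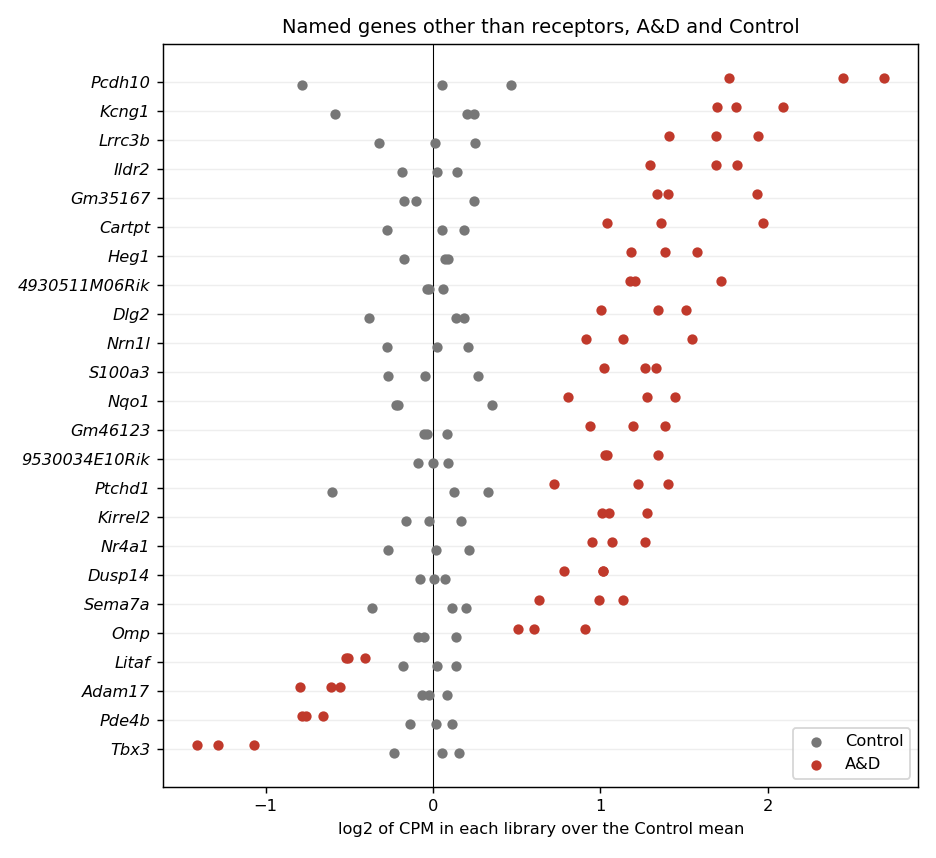
Named genes other than receptors. Each point is 1 library, placed by the log2 of its CPM over the Control mean of that gene, Control in grey and A&D in red. Red points lie above 0.5 in every row from Pcdh10 to Omp and below 0 in the 4 lowest rows, where the 4 lower genes are shown.

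Cyclic AMP, the second messenger of odorant receptors, acts on genes through factors that bind the element TGACGTCA or its core TGACG. Both were searched on both strands in the 250 bases before the start of each gene in the RefSeq table of GRCm38.p6. The full element stood before 2 of the 66 higher genes with such a sequence that are no receptors, Cartpt and Med21 (3.03%), and before 2.69% of the 13501 genes tested that have one. Before the 74 higher receptors with a sequence it was found in 0, and it is rare before receptors in general, in 1 of the 732 tested receptors with a sequence (0.137%), against 1.77% of all 27025 promoters in the table. The core, which lies within the full element, stood before 16 of the 66 (24.2%), against 26.8% of the genes tested, so its share among the higher genes was near the background.

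The 250 bases before Cartpt (GRCm38.p6, chr13:99900684-99900933, minus strand) and before Nr4a1 (chr15:101266596-101266845, plus strand) are shown because both genes rose and both windows hold these letters, with the full element in capitals for Cartpt and the 4 core matches in capitals for Nr4a1, each printed 5′ to 3′ along the gene.
Cartpt: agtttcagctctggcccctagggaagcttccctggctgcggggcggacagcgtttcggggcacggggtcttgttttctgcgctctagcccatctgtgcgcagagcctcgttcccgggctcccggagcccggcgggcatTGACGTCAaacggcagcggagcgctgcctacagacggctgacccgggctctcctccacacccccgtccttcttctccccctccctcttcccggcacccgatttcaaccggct
Nr4a1: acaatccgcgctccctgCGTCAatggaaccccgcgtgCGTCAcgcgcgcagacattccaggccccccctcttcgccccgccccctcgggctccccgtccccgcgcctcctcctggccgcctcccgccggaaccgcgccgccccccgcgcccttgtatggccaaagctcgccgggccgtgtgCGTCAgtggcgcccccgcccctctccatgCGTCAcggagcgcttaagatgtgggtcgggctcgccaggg
Cartpt holds 1 full element and Nr4a1 none. A match in such a window is a description of the letters and not a binding site.

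Cell type markers other than neuronal ones gave no calls. Of 21 genes that mark mature olfactory sensory neurons 4 were higher and none lower, all 21 had a log2 fold change above zero, and the median was 0.44. Omp was at 4205, 4925 and 4308 CPM in Control and 8388, 6803 and 6364 CPM in A&D (0.68 ± 0.14, adjusted p = 0.0189). Umodl1 rose by 0.68 ± 0.13 and Gnal, the olfactory G protein, whose reads were divided with another gene, by 0.48 ± 0.10. Calls on these 3 genes were lost without Control 1, and on each also without other libraries. The summed share of the 21 genes was 1.82% ± 0.0883 in Control and 2.61% ± 0.225 in A&D (SD, n = 3; exact permutation p = 0.1, adjusted 0.35), with no overlap. Without both Control 1 and A&D 1 none of these 3 was called, and the median of the 21 was 0.43.

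In olfactory signal transduction, 2 of 28 genes were higher, among them Gnal, and none was lower, with a median of 0.24. Cnga2, the main subunit of the channel opened by cyclic nucleotides, was at 361 ± 18.6 CPM in Control and 488 ± 20.9 CPM in A&D (0.44 ± 0.17, adjusted p = 0.283). Adcy3, the adenylyl cyclase of the pathway, was at 169 ± 11.4 CPM and 230 ± 35.3 CPM (0.44 ± 0.16, adjusted p = 0.250).

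Sustentacular cells, the supporting cells that surround the neurons, went the other way in all 13 markers tested, with a median of -0.30 and no call, 5 of them lower at an unadjusted p under 0.05. Their summed share was 0.459% ± 0.0309 in Control and 0.347% ± 0.0386 in A&D. Cyp2g1, a cytochrome of these cells, was at 589 ± 51.8 CPM and 463 ± 73.0 CPM (-0.35 ± 0.14, adjusted p = 0.311). Immature neurons had 1 higher gene of 12, Stmn4, which rose by 0.67 ± 0.12 (adjusted p = 0.00658), with a median of 0.08 for the list. Markers of globose basal cells, horizontal basal cells, Bowman gland, immune cells and red blood cells had no called gene. Several other lists also lay mostly below zero. Olfactory ensheathing and Schwann cells had 9 of 10 markers there (median -0.29), horizontal basal cells 7 of 8 (-0.29) and microvillar cells 5 of 7 (-0.34). Bowman gland had 7 of 9 (-0.24) and immune cells 14 of 18 (-0.20). Medians were nearer zero for globose basal cells (-0.08), respiratory ciliated cells (-0.06) and endothelial and stromal cells (-0.02). For red blood cells the median was 0.09. No marker of the cell type lists was at 0 throughout these 6 libraries. The part of these shifts in the calls on other genes was not tested. Mitochondrial transcripts lay above zero in all 15 tested with none called, and A&D 1 held the highest share of them, 0.202%, against 0.0837% to 0.118% in Control and 0.104% and 0.0880% in the other A&D mice.

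Whether the papers were separate or shared could be tested directly. Against A+D, 23 genes were higher in A&D and 0 were lower, or 0.120% and 0% of all genes tested. At an unadjusted p under 0.05, 413 genes were higher and 339 lower, and DESeq2 called 39 higher and 0 lower. The 23 genes were 21 receptors, the pseudogene Olfr764-ps1 and Nr4a1. This comparison and that with Control contain the same A&D libraries, so their results are not independent. The count of 23 dropped to 11 if A&D 1 or A&D 2 was omitted, to 12 on removal of A+D 1 and to 10 on that of A+D 3. The median difference was 0.91 over the 89 receptors higher than Control, 0.08 over all receptors tested and -0.02 over all genes.

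Olfr1408 differed most. It was at 1.17, 1.95 and 2.07 CPM in Control, at 3.02, 4.52 and 4.85 CPM in A+D and at 33.3, 20.6 and 15.7 CPM in A&D, a difference between A&D and A+D of 2.49 ± 0.29 on the log2 scale (adjusted p = 0.000778). The lowest A&D mouse was more than 3-fold above the highest A+D mouse. Olfr1426, whose reads were divided with another gene, had 16.3, 20.3 and 19.9 CPM in A+D and 64.1, 69.8 and 58.4 CPM in A&D, the difference with the lowest p (1.77 ± 0.15, adjusted p = 1.51e-05).

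From the subfamily of Olfr1408, MOR267, 5 genes were among the 21. Olfr1404 had 3.86, 3.01 and 5.1 CPM in A+D and 20.4, 15.7 and 13.7 CPM in A&D (2.05 ± 0.22, adjusted p = 0.000328). Olfr479 differed by 1.93 ± 0.23, Olfr509 by 2.14 ± 0.29 and Olfr55 by 1.67 ± 0.31. Of the 15 receptors with the largest change against Control, Olfr1383 and Olfr904 were the ones called here. Olfr1383, whose reads were divided with another gene, had 2.26, 1.71 and 3.06 CPM in Control, 6.55, 10.5 and 7.79 CPM in A+D and 30.8, 37.7 and 41.3 CPM in A&D (2.15 ± 0.30, adjusted p = 0.00617). Olfr904 had 1.59, 1.82 and 0.897 CPM in A+D against 6.67, 6.37 and 5.34 CPM in A&D (2.09 ± 0.37, adjusted p = 0.0251). With single libraries of the 2 groups left out, the calls on Olfr1408 and Nr4a1 held in all 6 fits. The call on Olfr509 was lost on removal of A+D 3, that on Olfr1383 on removal of any A+D library, and that on Olfr904 on removal of any library other than A+D 2.

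Of the 21 receptors, Olfr875 was the one not called against Control. Its A+D levels of 0.629, 0.487 and 0.653 CPM lay below its Control levels of 1.17, 1.16 and 0.95 CPM, and the difference between A&D and A+D was 2.07 ± 0.39 (adjusted p = 0.0404), a call lost on removal of any library other than A&D 3. Olfr13 and Olfr789 also had A+D means below their Control means. The receptors reported for acetophenone were not called between the delivery methods: the difference was -0.04 ± 0.31 for Olfr923, 0.35 ± 0.30 for Olfr1377, 0.50 ± 0.39 for Olfr145, 0.53 ± 0.19 for Olfr983 and 0.90 ± 0.35 for Olfr160.

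Nr4a1 was the only gene outside the receptors called against A+D. It was at 38.5, 33.5 and 41 CPM in A+D, which overlaps the 31.1 to 43.6 CPM of Control, and at 78.8, 90.1 and 72.3 CPM in A&D (1.09 ± 0.15, adjusted p = 0.00243). In O&C it was at 181, 164 and 209 CPM, above every A&D mouse (A&D minus O&C -1.20 ± 0.15, adjusted p = 6.88e-05). The activity-linked genes did not differ between the delivery methods at the threshold, with 0.60 ± 0.35 for Pcdh10, 0.67 ± 0.22 for Kcng1, 0.76 ± 0.22 for Lrrc3b and 0.36 ± 0.19 for Kirrel2, although a p that misses the threshold does not show that they are alike.

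**Figure D5:**
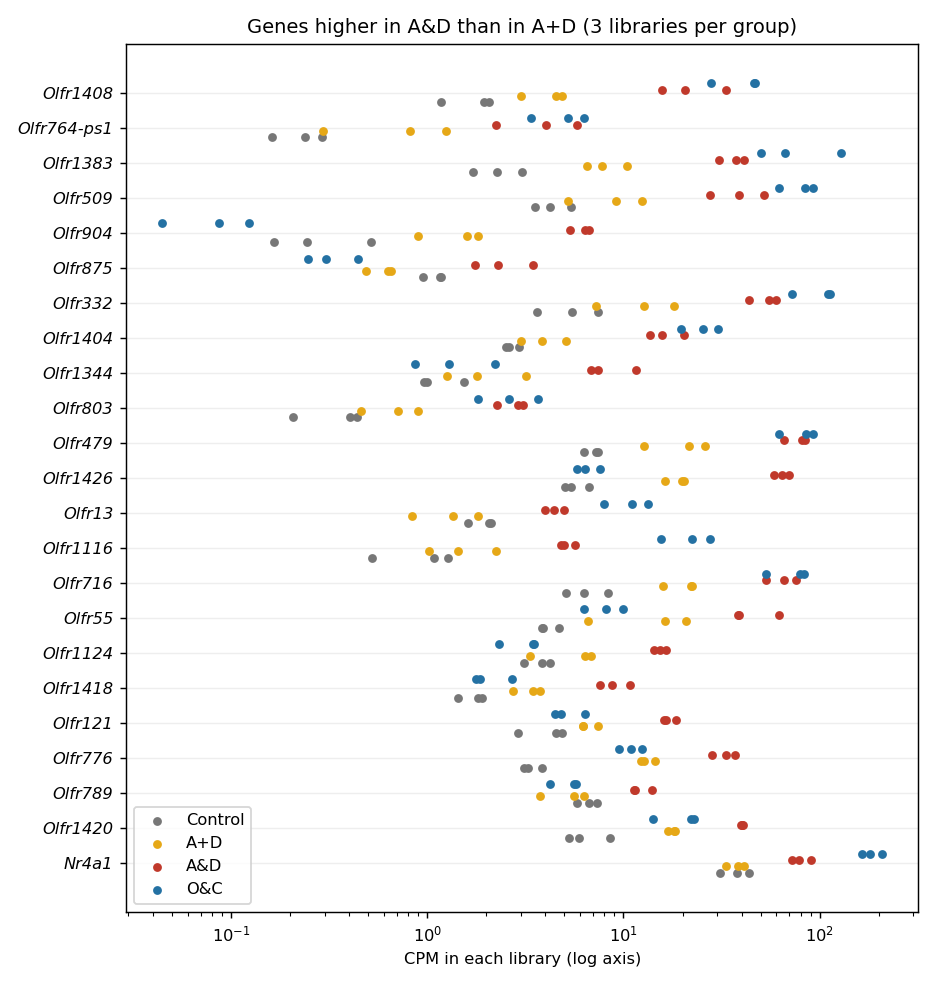
The 23 genes higher in A&D than in A+D, 1 point per library (CPM, log axis), with Control in grey, A+D in yellow, A&D in red and O&C in blue. Red points lie to the right of the yellow points in every row, and in the row of Nr4a1 the yellow points lie among the grey ones.

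Against the other odorant pair at the same delivery, 241 genes were higher in A&D than in O&C (1.25% of all genes tested) and 463 were lower (2.41%), among them 93 and 89 receptors. Of the 89 receptors higher than Control, 61 were also higher than O&C, 6 were lower and 22 were not called, in comparisons that share the A&D libraries. The higher and lower counts of genes dropped to 79 and 122 when O&C 3 was left out, to 92 and 115 on removal of A&D 1, and to 104 and 161 on that of A&D 3. With O&C 1 removed they were 113 and 339, and with O&C 2 removed 157 and 362.

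Olfr904 had 0.0867, 0.123 and 0.0445 CPM in O&C, the largest difference in favour of A&D among the named genes (6.08 ± 0.51, adjusted p = 5.65e-07). Olfr1026 at 0.434, 0.656 and 0.312 CPM (5.98 ± 0.45), Olfr923 at 0.0867, 0.656 and 0.401 CPM (5.85 ± 0.44) and Olfr1377 at 0.434, 0.328 and 0.267 CPM (5.82 ± 0.43) were likewise below 1 CPM in every O&C mouse. Other receptors higher than Control in A&D had overlapping levels with the other pair. Olfr117 had 20.8, 39.6 and 40 CPM in O&C (-0.08 ± 0.29, adjusted p = 0.898) and Olfr479 had 62.3, 92.9 and 84.8 CPM (-0.05 ± 0.22, adjusted p = 0.914).

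The 6 receptors lower in A&D than in O&C were Olfr1116, Olfr123, Olfr370, Olfr13, Olfr1383 and Olfr455. Olfr1116 had 15.5, 27.5 and 22.5 CPM in O&C against 5.65, 4.99 and 4.78 CPM in A&D (-2.08 ± 0.26, adjusted p = 0.000102). Olfr123 differed by -1.82 and Olfr370 by -1.40. Receptors with the largest differences in favour of O&C were at Control levels in A&D: Olfr847 had 9.58, 25.2 and 23.2 CPM in O&C, 0.513, 0.56 and 0.837 CPM in A&D and 0.364, 0.558 and 0.62 CPM in Control (A&D minus O&C -4.91 ± 0.47, adjusted p = 8.29e-06). Olfr1170 had 14.1, 17.7 and 16.5 CPM in O&C and 1.11, 1.08 and 1.44 CPM in A&D (-3.73 ± 0.21).

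Of the 99 other genes higher than Control, 0 were higher in A&D than in O&C and 15 were lower. Kcng1 was at 61, 71.6 and 86.9 CPM in O&C, above all 3 A&D mice (-0.98 ± 0.22, adjusted p = 0.0201), and Heg1 at 63.8, 76.2 and 94.1 CPM (-0.59 ± 0.14, adjusted p = 0.0269). Sema7a was at 23.9, 29.6 and 36.1 CPM in O&C (-0.98 ± 0.20, adjusted p = 0.0117). Cartpt, at 75.5, 93.6 and 101 CPM in O&C, overlapped its A&D range (0.25 ± 0.22, adjusted p = 0.558).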

How the data were processed

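RNA bound to ribosomes with phosphorylated S6 was sequenced from 15 olfactory epithelia; 6 libraries, Control and A&D, make the main comparison. The authors deposited estimated counts per gene, not normalized, per the file headers; STAR 2.7.10b, Salmon 1.10.1, R 4.4.2 and GRCm39 are named in the submitters' processing notes. The annotation and whether counting used the strand that the kit marks are not given in the sources used here, so reads of a gene and an antisense partner may be mixed. All libraries carry 1 batch label.

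Expected counts were rounded to whole numbers. Of 57010 identifiers 52029 matched a symbol; the others held 0.313% to 0.551% of a library's counts. Genes passed edgeR's filterByExpr (minimum count 10), libraries were scaled by TMM, and edgeR 4.0.16 in R 4.3.3 (robust quasi-likelihood F test, two-sided) fitted 1 mean per group over all 15 libraries, so the groups share the spread (common dispersion 0.0336, biological coefficient of variation 0.183). Contrasts were A&D against Control, A+D and O&C. P-values were adjusted by Benjamini-Hochberg over 19229 genes, with a threshold of 0.05. Standard errors (SE) were obtained by dividing the absolute log2 fold change by the square root of F. With counts of 1 to 3 in a group a ratio and its 95% exact interval are given. The fit was tested on simulated data. Shares of counts were compared by exact permutation.

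Receptors are symbols of Olfr and a number: 1108 intact, 299 pseudogenes. A gene is taken to share reads where its counts were whole in fewer than 8 of 15 libraries, without a search for the other gene. Subfamilies come from MOR synonyms in the RefSeq gene table, with numbers under 100 as class I and MOR0 in no class. Class was to be read from family symbols, which the name table does not hold. Coding sequences are the longest reading frames of GENCODE M21 transcripts (GRCm38) of at least 800 bases, found for 865 of 867 receptors. The highest blastn score gave the best match and global alignment the identity, with gaps counted as differences.

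Members and lists were chosen with earlier results of these data known. Named were: the 15 receptors of largest fold change with no overlap, the 3 called receptors of highest A&D level, the 15 other genes of largest fold change at 1 CPM or more, all lower genes, called list members, receptors reported for acetophenone, and genes called in the direct comparisons. Others, such as subfamily members, pseudogenes, Doc2g and Nrn1, were chosen after their values were seen. Alternatives were other size factors, no filter or a count of 30, DESeq2 1.42.0, only the 2 groups compared, a replicate block, each library left out, and, chosen after seeing the data, scaling on 21 mature neuron markers and leaving out Control 1 with A&D 1. The values of 1 called list member are not reported here.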

Additional observations from a re-analysis of the deposited data

Results flagged for a closer look

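Olfr904, Olfr1383 and Nr4a1 were each higher than Control in A&D and also differed between the delivery methods by a direct test. The log2 difference between A&D and A+D was 2.09 for Olfr904 (adjusted p = 0.0251), 2.15 for Olfr1383 (adjusted p = 0.00617) and 1.09 for Nr4a1 (adjusted p = 0.00243), in each case with all 3 A&D mice above all 3 A+D mice. Olfr904 and Nr4a1 had whole counts in most libraries, and the reads of Olfr1383 were divided with another gene. When single libraries were left out, the delivery call on Nr4a1 held in all 6 fits, that on Olfr1383 was lost on removal of any A+D library, and that on Olfr904 on removal of any library other than A+D 2. Olfr1383 in O&C, at 50.2, 129 and 66.4 CPM, was above its A&D levels.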

How the results depend on the processing

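No named result reversed its direction in the settings under which it was run (named results were run for A&D against Control and against A+D); of 54, 23 kept their call in each of them. With only the 2 groups compared, the calls against A+D on Olfr904, Olfr509 and Olfr875 were lost, and on mature neuron scaling those on Olfr904 and Olfr875. A&D against Control gave 193 higher and 4 lower genes, and 353 and 75 with DESeq2, 477 and 133 without a count filter, 334 and 34 with only the 2 groups compared, 18 lower with total count scaling, 8 lower at a minimum count of 30, 6432 lower when scaled on mature neuron genes, and 79 and 0 without Control 1 and A&D 1. Receptors called lower went from 0 to 1 with DESeq2, 2 without a filter, 1 with only the 2 groups and 134 on mature neuron scaling. Leaving out 1 library gave 111 to 175 higher genes, 0 to 26 lower genes and 71 to 82 higher receptors.

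Against A+D, 23 higher genes became 39 with DESeq2, 138 (and 70 lower) without a filter, 10 with only the 2 groups, 15 on mature neuron scaling, and 10 to 20 without 1 library. Against O&C, 241 higher and 463 lower genes became 468 and 1018 with DESeq2, 813 and 947 without a filter, 641 and 994 with only the 2 groups, 4277 and 103 on mature neuron scaling, and 79 to 228 and 115 to 410 without 1 library. The causes of these moves were not tested.

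Whether replicate numbers pair the mice is not known. For A&D and Control, correlations of same-numbered deviations ran from -0.06 to 0.14 and those of differently numbered ones from -0.20 to 0.14. Such values cannot exclude a pairing, and Control 1 and A&D 1, both low in the secreted carrier proteins, carry the same number. With a replicate block 153 genes were higher and 2 lower than Control, 17 higher than A+D, and 148 higher and 249 lower than O&C. The difference in receptor share, 0.128 percentage points, ran from 0.112 to 0.140 without 1 library. Receptors near 1 read a library in Control have fold changes limited by depth.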
